A study of Mus musculus with 30 samples.

Results

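The genes studied here encode the nuclear part of the mitochondrial respiratory chain and ATP synthase. They were chosen by symbol among protein-coding mouse genes: Nduf genes of the a, b, c, s and v series, Uqcr genes, Cox4 to Cox8, Atp5 genes, the Sdh genes a to d, and Cyc1. This gave 86 of the 57186 rows of the count matrix, which stand for 85 symbols because Atp5o has a further identifier. Complex I holds 35 of them, complex II 4, complex III 9, complex IV 20 and complex V 18. No pseudogenes or other non-coding rows were taken, so 12 rows with matching symbols were left out. Of these, Ndufb1-ps (42535 counts over all libraries) is annotated as a long non-coding RNA, and the others as processed pseudogenes.

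RNA was sequenced from NIH/3T3, a mouse fibroblast line kept in DMEM with 10% FBS, and from CGR8, a mouse embryonic stem cell line kept in N2B27 with 2i and LIF. The labels give both lines the same genotype, a ROSA26 SLT knock-in, so the controls carry it too. Each line was treated with cycloheximide (CHX), which blocks elongation on cytosolic ribosomes, at 0.1 µg/mL for 1, 2, 5 or 48 h, and compared with its own 0 h cells. The labels list that dose for the 0 h samples as well, and these were taken as untreated from their time label. There were 3 replicates (A, B and C) per line and time, 30 libraries in 10 groups. The labels do not say whether replicates were separate cultures, so p-values measure the spread between these samples, which may be technical.

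The respiratory chain sits in the inner mitochondrial membrane. Complexes I (NADH dehydrogenase) and II (succinate dehydrogenase) pass electrons to ubiquinone, complex III passes them on to cytochrome c, and complex IV passes them to oxygen. Complexes I, III and IV pump protons, and complex V (ATP synthase) uses the gradient to make ATP. Mitochondrial DNA encodes a few subunits of complexes I, III, IV and V, made on mitochondrial ribosomes. All of complex II and most subunits of the others are nuclear genes, translated in the cytosol and imported. The factors NRF1, GABPA (an ETS family protein) and YY1 are known to bind the promoters of many of them.

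Promoters are shown because the members are a textbook case of genes read by shared factors. Of the 85 symbols, 68 matched RefSeq promoters on GRCm38.p6, with 73 windows of 300 bases (250 before the start and 50 after it). Those without a match include Atp5a1, Atp5mpl, Cox4i1, Cox4i2, Cox6a2, Cox6c, Cox8c, Cyc1, Ndufa2, Ndufa4l2, Ndufb9, Ndufs1, Sdhc, Uqcrb, Uqcrc2 and Uqcrq. Each window was searched on both strands for 4 motifs. The NRF1 motif GCGCATGCG was in 8 member windows (10.96%), against 1.75% of all 32851 windows. The ETS motif CCGGAAG was in 16 (21.9%, against 8.86%), and the YY1 motif AAGATGGCG in 7 (9.59%, against 1.40%). The TATA motif TATAAA was in 8 (10.96%, against 13.6%). A palindromic copy of the NRF1 motif matches on both strands in overlapping letters. A match describes letters and is not evidence of binding.

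The 150 bases before the start are printed for 6 members, 5′ to 3′ on the strand of the gene, with matches to the NRF1 or ETS motif in capitals. Sdha (chr13:74350241-74350390, minus strand) and Sdhd (chr9:50603850-50603999, minus strand) are shown because these complex II genes moved in opposite directions. The other 4 are examples from complexes I, IV and V: Ndufa11 (chr17:56717612-56717761, plus strand), Cox6a1 (chr5:115348959-115349108, minus strand), Atp5k (chr5:108434400-108434549, minus strand) and Atp5g2 (chr15:102671048-102671197, minus strand). Each of these carries an NRF1 or ETS match, which most member windows do not, so they are not typical of the members. In the bases shown, Sdhd and Cox6a1 carry the ETS motif on the reverse strand, while Ndufa11, Atp5k and Atp5g2 carry the palindromic NRF1 motif. Elsewhere in their windows Cox6a1 also has the NRF1 motif and Atp5k the ETS motif. Sdha has none of these letters in this stretch.
Sdha: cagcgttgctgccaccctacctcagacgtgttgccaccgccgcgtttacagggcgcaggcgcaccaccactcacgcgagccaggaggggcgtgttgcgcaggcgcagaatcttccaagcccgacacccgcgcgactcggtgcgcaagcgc
Sdhd: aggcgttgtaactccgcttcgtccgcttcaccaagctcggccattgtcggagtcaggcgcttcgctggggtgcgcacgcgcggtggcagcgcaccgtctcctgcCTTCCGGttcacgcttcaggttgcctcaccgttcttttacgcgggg
Ndufa11: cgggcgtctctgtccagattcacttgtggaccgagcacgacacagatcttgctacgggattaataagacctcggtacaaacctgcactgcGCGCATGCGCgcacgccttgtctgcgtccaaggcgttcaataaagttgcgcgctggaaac
Cox6a1: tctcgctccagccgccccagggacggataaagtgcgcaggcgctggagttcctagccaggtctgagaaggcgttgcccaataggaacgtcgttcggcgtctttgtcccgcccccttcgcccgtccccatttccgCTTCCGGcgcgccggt
Atp5k: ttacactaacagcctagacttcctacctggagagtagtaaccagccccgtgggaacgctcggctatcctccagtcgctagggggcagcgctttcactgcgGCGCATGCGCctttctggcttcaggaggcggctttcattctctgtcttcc
Atp5g2: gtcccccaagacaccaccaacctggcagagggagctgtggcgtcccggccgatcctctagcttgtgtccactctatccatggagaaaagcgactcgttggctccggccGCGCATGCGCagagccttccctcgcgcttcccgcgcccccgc

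The 5 h log2 fold changes of members with and without a motif are given as medians, with no test. In CGR8 the median was 0.80 for the 8 members with the NRF1 motif and 0.73 for the 58 without it. For the ETS motif it was 0.91 in 16 members and 0.72 in 50. For the YY1 motif it was 0.85 in 7 and 0.73 in 59, and for the TATA motif 1.03 in 5 and 0.73 in 61. In NIH/3T3 the medians were 0.17 with the NRF1 motif and 0.30 without it, and 0.34 with the ETS motif and 0.26 without it. They were 0.38 and 0.26 for the YY1 motif, and 0.30 and 0.27 for the TATA motif.

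The libraries held between 18.2 and 30.5 M counts (mega-counts) each. Levels below are CPM, counts relative to the library total, scaled for composition within a line by TMM factors. They are shares of a library, so a rise of a gene and a fall of other RNA cannot be told apart. Marker levels are CPM of the library total without TMM factors. The pluripotency markers lay at or under 0.383 CPM in NIH/3T3 and at 376 CPM or more in CGR8. Among fibroblast markers Col1a1 was high in NIH/3T3 alone, whereas Thy1 was at most 0.0932 CPM there and Postn at most 1.01 CPM. A few libraries lay apart from their replicates in the median of the members, expressed as a log2 deviation from the 0 h mean of the line. NIH/3T3 1 h C stood at 0.35 against -0.11 and -0.20 for A and B, and CGR8 0 h B at 0.20 against -0.10 for both A and C. CGR8 2 h B stood at 0.11 against 0.44 and 0.51 for A and C, and CGR8 5 h C at 0.48 against 0.99 and 0.81 for A and B. The subunits encoded by mitochondrial DNA deviated the opposite way in each of these libraries. Their medians were -0.85 in NIH/3T3 1 h C (A and B, -0.02 and 0.04), -0.21 in CGR8 0 h B (0.09 and 0.15), 0.23 in CGR8 2 h B (-0.03 and -0.25), and -0.21 in CGR8 5 h C (-0.87 and -0.95).

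In untreated cells the scaled CPM of the members summed to between 13627 and 14623 in NIH/3T3 and to between 13842 and 17400.1 in CGR8. Levels between genes are compared per kilobase of transcript (CPM per kb, scaled over all 30 libraries). Atp5b, the catalytic beta subunit of ATP synthase, was the highest member in both lines, at 1350 ± 56.0 CPM per kb in NIH/3T3 and 1499 ± 269 in CGR8 (SD, n = 3 each). Next in NIH/3T3 came Atp5g3, a gene for the c ring subunit, at 821 ± 86.1. Next in CGR8 came Cox4i1, the common isoform of a complex IV regulatory subunit, at 828 ± 92.0. Of 80 members tested between the untreated lines, 25 were higher in CGR8 and 21 lower, with 42.8% of all genes tested higher and 36.3% lower. The median difference of the members was 0.01 on the log2 scale.

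The sharpest differences between the lines lay in tissue isoforms of complex IV. The CPM in this paragraph are scaled over all 30 libraries, so they differ slightly from the values scaled within a line given later. Cox6b2, known as the testis isoform of subunit 6b, stood at 20.1, 22.1 and 19.6 CPM in CGR8 at 0 h, and at 0.0501, 0 and 0.0337 CPM in NIH/3T3. Cox7a1, the heart and muscle isoform of subunit 7a, stood at 6.24, 5.51 and 6.18 CPM in CGR8 and at 0.0501, 0.0857 and 0.202 CPM in NIH/3T3. Cox7b2, a testis isoform of subunit 7b, showed the reverse, with 38.4, 37.5 and 36.0 CPM in NIH/3T3 against 0.158, 0.200 and 0.164 CPM in CGR8. The lines did not overlap for any of these 3 genes. The log2 difference of CGR8 from NIH/3T3 was 9.30 ± 0.368 (SE) for Cox6b2 (adjusted p = 2.10e-17), 5.55 ± 0.357 for Cox7a1 (2.73e-14) and -7.71 ± 0.261 for Cox7b2 (8.56e-21), and these fitted values depend on the prior count because 1 side is near 0. The common isoforms were present in both lines: per kb, Cox6b1 stood at 445 ± 135 in NIH/3T3 and 427 ± 9.46 in CGR8, and Cox7b at 214 ± 0.884 and 160 ± 17.97. Cox4i2, Cox6a2, Cox8b, Cox8c, Ndufa4l2 and the further Atp5o identifier passed the filter on low counts in neither line. That identifier had 0 counts.

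**Figure D1:**
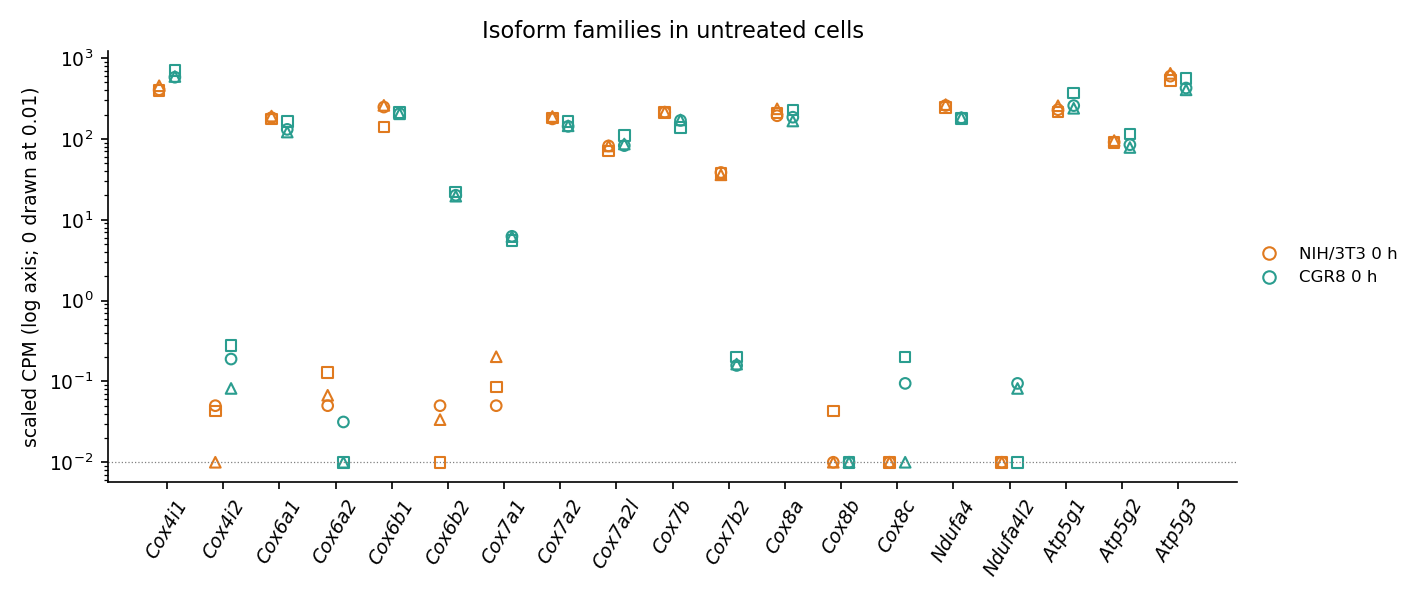
Levels of the isoform families in untreated cells (CPM scaled over all 30 libraries, log axis, with a level of 0 drawn on the dotted line). Each library is 1 point, with its shape for the replicate letter (circle A, square B, triangle C). NIH/3T3 is orange and CGR8 green. Cox6b2 and Cox7a1 lie above 1 CPM only in CGR8, and Cox7b2 only in NIH/3T3.

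The design asks how transcripts respond in the first hours of inhibited translation. Most tested members had risen in CGR8 by 5 h and fewer in NIH/3T3. In the main fit, fewer members were called against 0 h at 48 h than at 5 h. With length and GC trends removed this did not hold in NIH/3T3, as given below. Calls below mean an edgeR p under 0.05 after adjustment over all genes tested. At 1 h, 0 of 78 tested members were called in NIH/3T3 (0.653% of all genes higher, 0.0789% lower) and 0 of 79 in CGR8 (0.144% and 0.126%). No member had an unadjusted p under 0.05 at 1 h, and DESeq2 called 0 in both lines, while voom with sample weights called 12 lower in NIH/3T3 and 0 in CGR8. Of all genes, voom called 20.7% in NIH/3T3 and 6.55% in CGR8, both directions together.

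At 2 h, 32 members rose and 1 fell in NIH/3T3, against 16.1% of all genes higher and 18.9% lower. The median log2 fold change was 0.34, and that of all genes was -0.01. In CGR8 14 rose and 0 fell (all genes, 8.97% higher and 11% lower), with a median of 0.38 against 0.01. These 2 h counts rested on single libraries. In NIH/3T3 the total of 33 was 11 without 0 h A, 18 without 0 h B, 18 without 2 h B and 9 without 2 h C. In CGR8 the total of 14 was 3 without 0 h A, 2 without 0 h C, 35 without 2 h B and 0 without 2 h C.

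At 5 h, 35 members rose and 1 fell in NIH/3T3, where 24% of all genes rose and 27.1% fell. The median was 0.28 against -0.01 for all genes, and the total of 36 was 24 without 0 h A. In CGR8 66 of 79 rose and 0 fell, where 24.9% of all genes rose and 27.2% fell. The median there was 0.74 against -0.01 for all genes. The count of 66 ranged from 57 to 71 with each library left out. The scaled CPM of the members summed to 25872, 23157 and 18413 in CGR8 5 h A, B and C, above each of the 3 libraries at 0 h.

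At 48 h, fewer members were called against 0 h than at 5 h in the main fit, and in both directions. With length and GC trends removed, NIH/3T3 had more calls at 48 h (39, with 57.2% of all genes called) than at 5 h (26, with 49%). Of those 39, 29 were higher and 10 lower. The values that follow are from the main fit. In NIH/3T3 8 were higher and 13 lower (all genes, 26.7% and 25.6%), with a median of -0.07. In CGR8 3 were higher and 7 lower (all genes, 12.2% and 15.6%), with a median of 0.02. The CGR8 total of 10 was 6 without 48 h A, 6 without 48 h B and 5 without 48 h C. Between 5 h and 48 h, 44 members fell and 5 rose in NIH/3T3, where 31.4% of all genes fell and 34.1% rose. In CGR8 66 fell and 1 rose, where 28.6% of all genes fell and 28.9% rose. The comparisons of 5 h and 48 h share libraries, the 0 h controls or the 5 h cells.

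**Figure D2:**
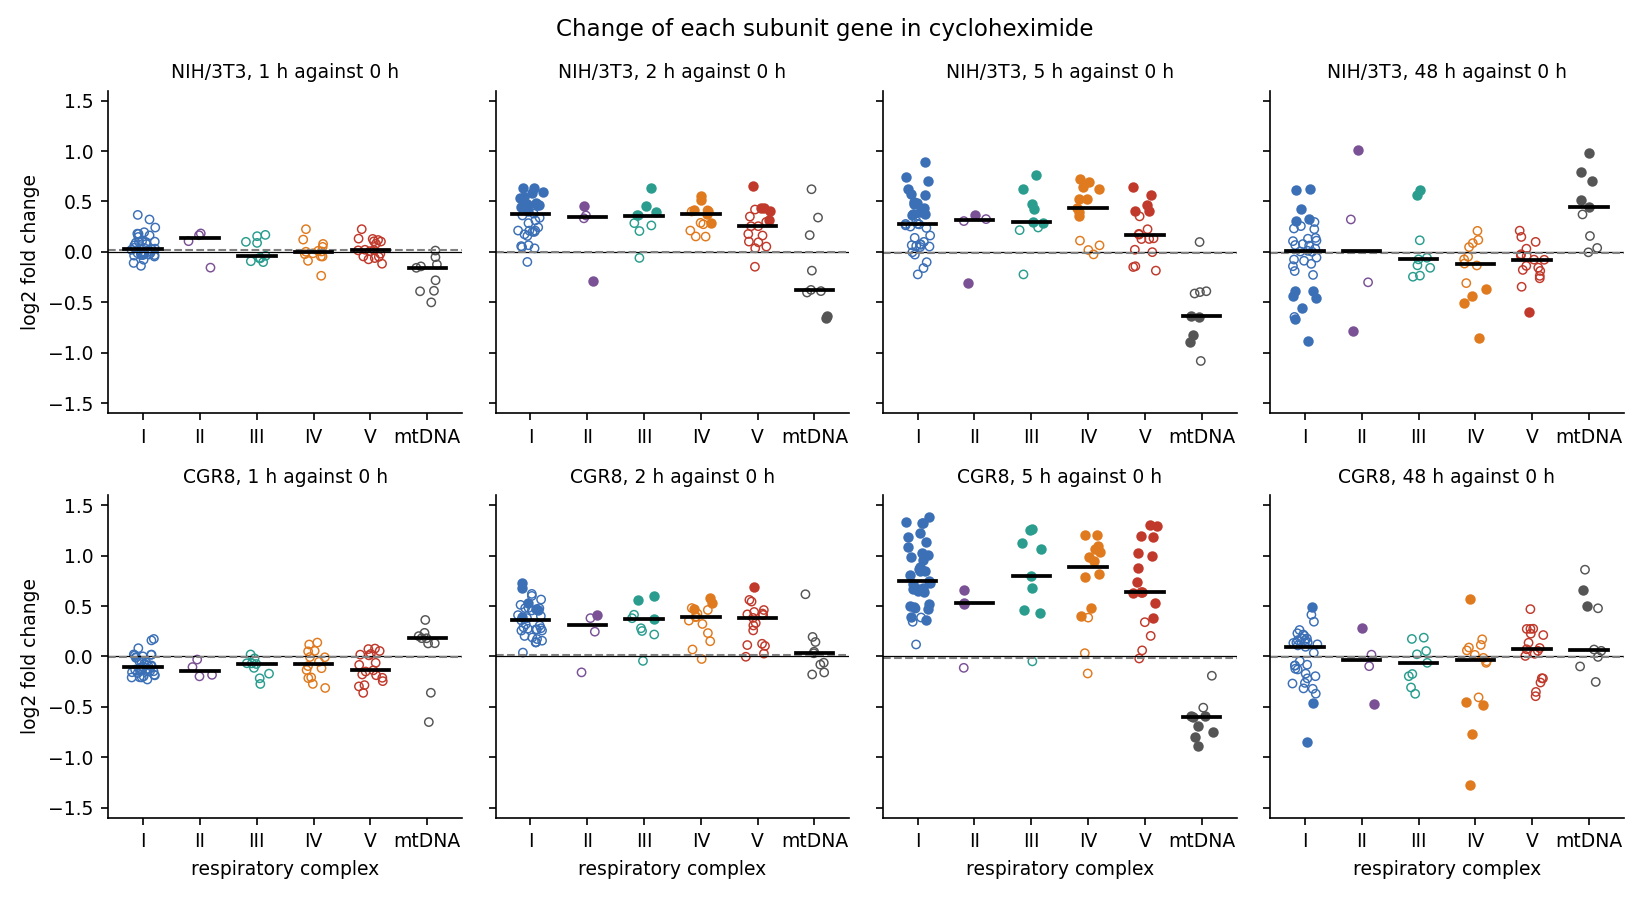
Log2 fold change of each tested subunit gene against 0 h, by complex and for the mitochondrially encoded subunits (mtDNA), in each line and at each time. Filled points were called and open points were not, black bars are medians and the dashed line is the median of all genes tested. In CGR8 at 5 h most nuclear-encoded points lie above 0 in all 5 complexes, and at 48 h they lie on both sides of 0.

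**Figure D3:**
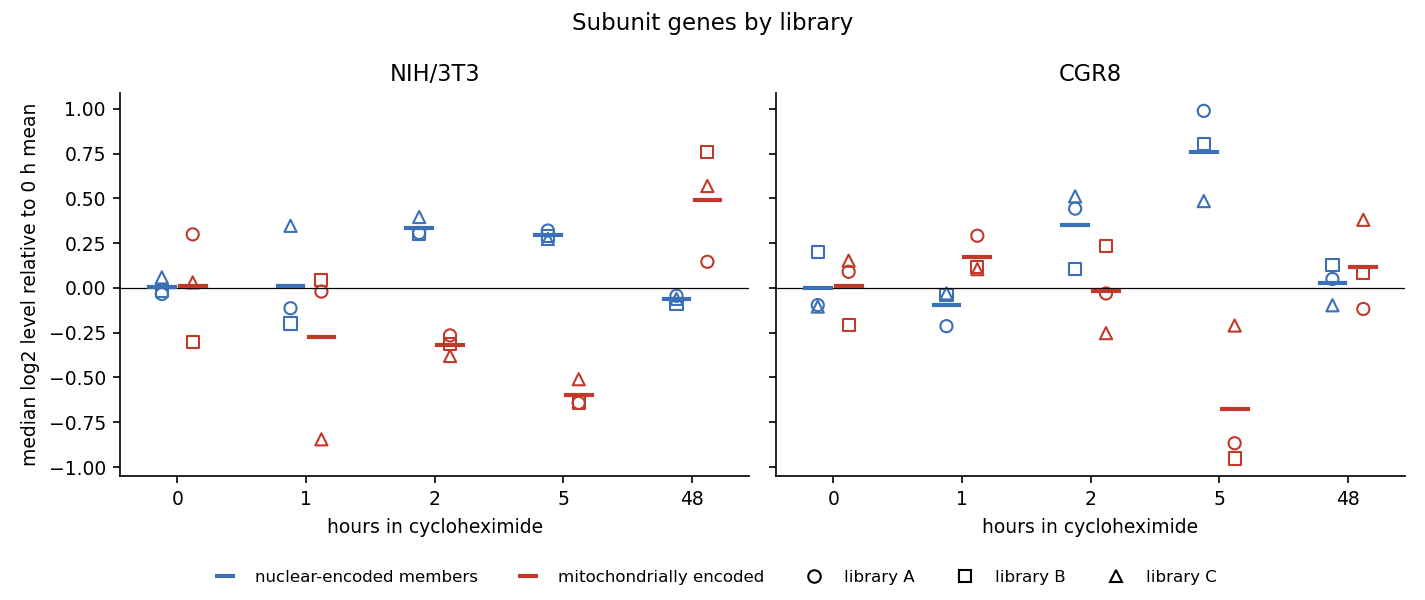
Median log2 level relative to the 0 h mean of the line, by hours in cycloheximide (evenly spaced, not to scale), for the nuclear-encoded members (blue) and the mitochondrially encoded subunits (red). Each point is a library, its shape gives the replicate letter, and bars are means of the 3. In CGR8 the blue points at 5 h, from 0.48 to 0.99, lie above those at 0 h, while NIH/3T3 1 h C lies above its replicates at 0.35.

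Transcript length and GC content moved with these changes, and the values below stand beside every count above. Members are short: their transcripts run from 321.5 to 2900 bp, with a median of 731 bp, and none is over 3000 bp. In CGR8 at 5 h the median of all genes was 0.69 for transcripts up to 700 bp, 0.40 up to 1500 bp, 0.02 up to 3000 bp and -0.40 above that. Members of the first 3 classes had medians of 0.99, 0.72 and 0.41, above all genes in each class. In NIH/3T3 at 5 h members stood at 0.36, 0.30 and 0.10 against 0.41, 0.21 and -0.04, so that the shortest members were not above genes of their length.

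A fit with trends in length and GC content removed called 43 of 79 members in CGR8 at 5 h, 40 higher and 3 lower, with a median of 0.28. The same fit called 45.8% of all genes, and the shares of all genes in this paragraph count both directions together. Of these 43, 38 were among the 66 above. In NIH/3T3 at 5 h it called 26 of 78, of which 16 were higher and 10 lower, with a median of 0.05 (all genes, 49% called). Of these 26, 15 were among the 36 above, and 1 of those 15 had turned in direction. By complex, the 5 h medians with the trends removed were 0.30 in CGR8 and 0.09 in NIH/3T3 for complex I, 0.25 and 0.21 for II, 0.50 and 0.17 for III, 0.24 and 0.01 for IV, and 0.19 and -0.05 for V. At 2 h it called 9 higher and 3 lower in NIH/3T3 and 3 higher in CGR8, with medians of 0.08 and 0.06. Of all genes it called 30% and 15.7% at that time. At 48 h it called more members than the main fit: 29 higher and 10 lower in NIH/3T3, and 17 higher and 9 lower in CGR8. It called 57.2% and 36.2% of all genes there. From 5 h to 48 h it called 6 higher and 32 lower in CGR8 (all genes, 54.1% called). In NIH/3T3 the direction turned, with 33 higher, 15 lower and a median of 0.18 in place of -0.43 (all genes, 62.5% called). What in the cells or the libraries moves with length was not tested.

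**Figure D4:**
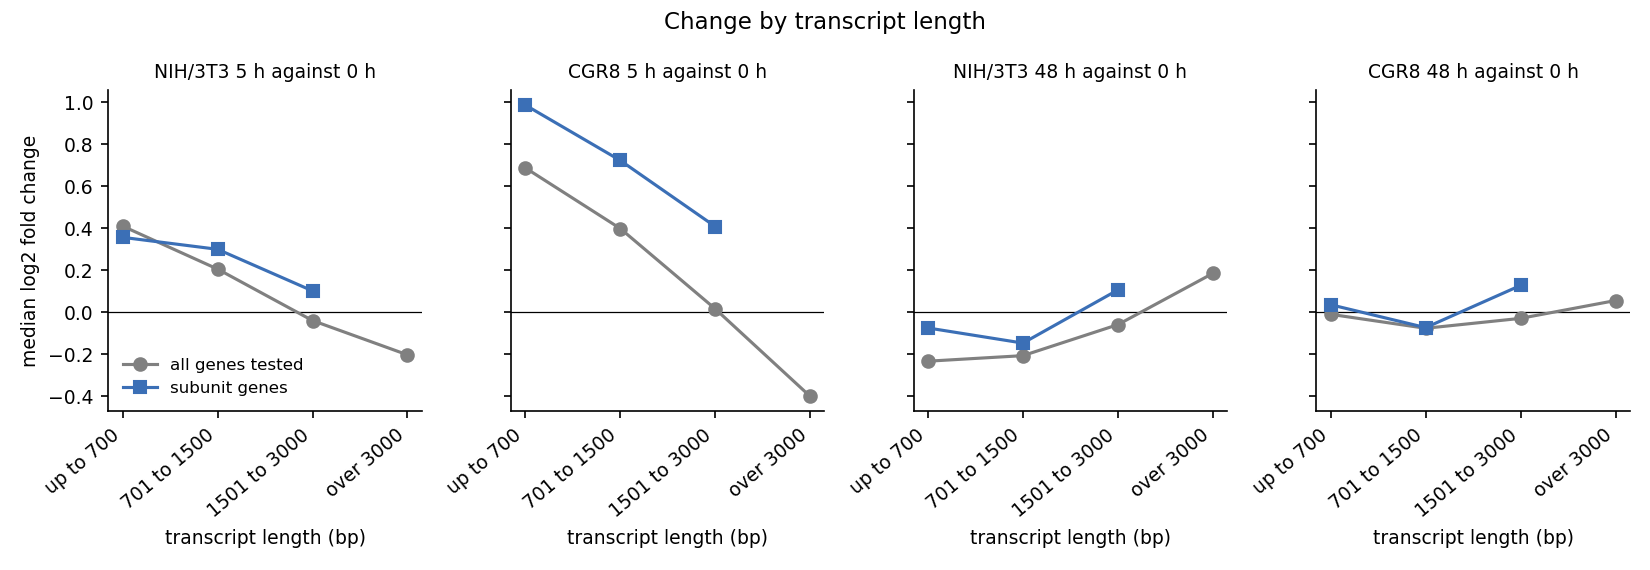
Median log2 fold change by class of transcript length (bp) at 5 h and 48 h in each line, for the members (blue squares) and for all genes tested (grey circles). In CGR8 at 5 h members lie above all genes in each class, and in NIH/3T3 at 5 h the members up to 700 bp do not.

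Complex I has 7 core subunits among these genes, which carry the path of electrons from NADH to ubiquinone, and 28 accessory subunits. In CGR8 at 5 h 26 of the 28 accessory subunits rose, with a median of 0.86, and 5 of the 7 core subunits, with a median of 0.39. In NIH/3T3 at 5 h 12 accessory subunits rose (median 0.28) and 2 core subunits (0.05). Of all genes, 24.9% rose in CGR8 and 24% in NIH/3T3, and the core count in NIH/3T3 lay near that share. Transcript length, with which the 5 h change moved, differed as well. Core subunits run from 870.5 to 2625.5 bp and accessory subunits from 382 to 2413 bp. The difference between core and accessory subunits was not tested, and it was not separated from length.

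Ndufb4, an accessory subunit of the membrane arm, rose most in complex I at 5 h in both lines. In CGR8 it stood at 16.9, 15.6 and 18.01 CPM at 0 h, at 21.6, 23.9 and 35.4 CPM at 2 h and at 51.6, 38.4 and 41.4 CPM at 5 h, and was back at 18.8, 18.8 and 18.2 CPM at 48 h. Every 2 h and 5 h library lay above the 0 h libraries, as the rule for naming the leading member of a complex required. The same holds for the leading rises and falls against 0 h named below, so their separation is not further support. Its log2 fold change at 5 h was 1.38 ± 0.164 (SE, adjusted p = 8.28e-06), and 0.87 with length and GC trends removed. In NIH/3T3 Ndufb4 went from 12.2, 11.2 and 12.4 CPM to 23.2, 20.4 and 22.8 CPM at 5 h and rose by 0.89 ± 0.192 on the log2 scale (adjusted p = 0.00105). Ndufb8, also of the membrane arm, led complex I at 2 h in NIH/3T3, from 19.0, 19.6 and 20.6 CPM to 30.9, 29.0 and 31.6 CPM (0.63 ± 0.156, adjusted p = 0.00626). It shares exon sequence on the same strand with another annotated gene, so its counts are uncertain.

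Of the core subunits, Ndufv2, an iron-sulfur protein of the NADH-oxidising module, rose in NIH/3T3 by 5 h and had fallen by 48 h. It stood there at 130.2, 138 and 139.7 CPM at 0 h, 204, 204 and 194 CPM at 5 h, and 97.3, 102 and 98.9 CPM at 48 h. The 5 h libraries lay above the controls and the 48 h libraries below them, with log2 fold changes of 0.56 and -0.45. Ndufs1, the largest iron-sulfur subunit, did not fall back. It stood at 210.4, 233 and 215 CPM at 0 h in NIH/3T3, at 290.5, 288 and 278 CPM at 5 h and at 344, 339.6 and 332 CPM at 48 h. Its 48 h change was 0.63 ± 0.0871 in NIH/3T3 (adjusted p = 2.09e-05) and 0.49 ± 0.0913 in CGR8 (adjusted p = 0.000864). Ndufs8, an iron-sulfur subunit near the ubiquinone site, fell at 48 h in CGR8, from 67.6, 94.5 and 66.7 CPM to 44.4, 44.9 and 37.3 CPM (-0.85 ± 0.194, adjusted p = 0.00369). Ndufb9, an accessory subunit, fell most at 48 h in NIH/3T3, from 29.6, 38.9 and 43.2 CPM to 20.2, 21.2 and 19.1 CPM (-0.89 ± 0.228, adjusted p = 0.00381), and it too overlaps another gene on the same strand. Ndufs3 was called in none of the comparisons at 2, 5 and 48 h.

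In complex II, Sdha and Sdhd moved in opposite directions. Sdha carries the flavin and oxidises succinate, Sdhb holds the iron-sulfur clusters, and Sdhc and Sdhd anchor them in the membrane. In NIH/3T3 Sdha stood at 243, 223 and 237 CPM at 0 h, at 213, 176 and 185 CPM at 2 h, at 192.5, 189 and 187 CPM at 5 h and at 484, 464 and 465 CPM at 48 h. The 2 h and 5 h libraries all lay below the controls and the 48 h libraries well above them. Its log2 fold changes were -0.29 ± 0.0801 at 2 h (adjusted p = 0.0108), -0.31 ± 0.0801 at 5 h (0.00457) and 1.01 ± 0.0806 at 48 h (6.89e-08). The fall at 2 h missed the threshold without 0 h A, 2 h B or 2 h C (adjusted p from 0.0532 to 0.0622). With length and GC trends removed the 48 h change was 1.04. Sdha was the only member that fell at 2 h and at 5 h in NIH/3T3.

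Sdhd took the opposite course in the same libraries. It stood at 190.4, 192 and 199 CPM at 0 h in NIH/3T3, at 269.7, 263 and 263 CPM at 2 h, at 251, 252 and 246 CPM at 5 h and at 114, 113 and 110.1 CPM at 48 h. No library at 2, 5 or 48 h overlapped the controls. The log2 fold changes were 0.45 at 2 h (adjusted p = 0.00737), 0.37 at 5 h (0.0141) and -0.78 ± 0.116 at 48 h (3.78e-05). With length and GC trends removed they were 0.22, 0.16 and -0.60, and the 5 h call was lost (adjusted p = 0.0530). In CGR8 Sdhd rose by 0.52 at 5 h (adjusted p = 0.000687) and fell by 0.47 at 48 h (0.00331). There Sdha was not called at 5 h, with 355, 370.4 and 339 CPM against 350.3, 423 and 378 CPM at 0 h. At 48 h it was higher in CGR8, at 454, 478 and 470.5 CPM (0.28 ± 0.0941, adjusted p = 0.0329), a call that was lost in 5 of the 6 fits with 1 library of these groups left out. Sdhb, the leading rise of complex II in CGR8 at 5 h, went from 142, 169 and 136 CPM to 272.5, 252.5 and 180.4 CPM (0.66 ± 0.146, adjusted p = 0.00139).

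**Figure D5:**
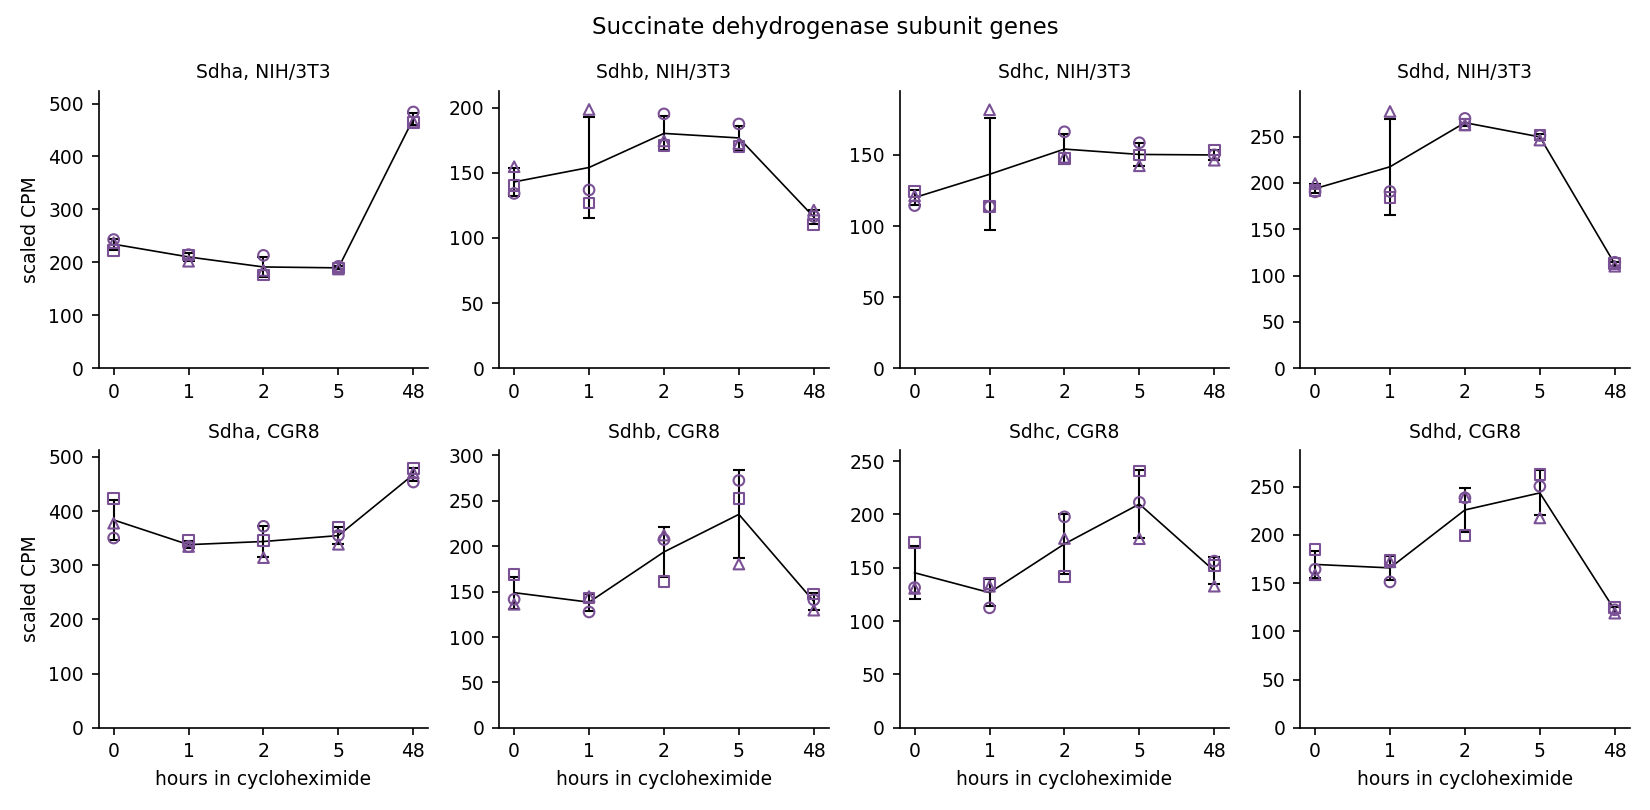
Levels of the 4 complex II genes (CPM, axes from 0) by hours in cycloheximide (evenly spaced, not to scale), with 1 point per library, its shape for the replicate letter, a line through the means and bars of 1 SD (n = 3). In NIH/3T3 at 48 h Sdha lies at 464 to 484 CPM, above its controls, while Sdhd lies at 110.1 to 114 CPM, below its own.

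Complex III genes rose in 8 of 9 cases in CGR8 at 5 h (median 0.79) and in 6 of 9 in NIH/3T3 (0.30), where 24.9% and 24% of all genes rose. Uqcr10, a small subunit beside the Rieske protein and cytochrome c1, led in CGR8. It went from 119, 122 and 125 CPM to 363, 280.5 and 236.5 CPM at 5 h (1.26 ± 0.147, adjusted p = 7.04e-06) and stood at 97.5, 121 and 106 CPM at 48 h. The 5 h libraries were spread widely but each lay above all controls. In NIH/3T3 the hinge protein gene Uqcrh led at 2 h, from 187, 199 and 205 CPM to 279.6, 311 and 327 CPM (0.63 ± 0.168, adjusted p = 0.00931). That call was lost with length and GC trends removed (0.26, adjusted p = 0.0700).

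Of the core proteins of complex III, Uqcrc2 stayed high at 48 h. Uqcrc2 in NIH/3T3 stood at 159, 179 and 176 CPM at 0 h, rose to 295, 293 and 283 CPM at 5 h and remained at 264, 267.5 and 256.5 CPM at 48 h. Its log2 fold changes were 0.76 ± 0.114 (adjusted p = 4.78e-05) and 0.62 ± 0.114 (0.000285). Uqcrc1 was not called at 2 h or 5 h in either line, and at 48 h it was higher in NIH/3T3, at 302, 295 and 290.5 CPM against 194, 184 and 219.7 CPM (0.57 ± 0.105, adjusted p = 0.000301). The catalytic subunits Uqcrfs1, the Rieske iron-sulfur protein, and Cyc1, cytochrome c1, rose in CGR8 at 5 h by 0.46 and 0.43. In NIH/3T3 at 5 h Uqcrfs1 rose by 0.30 and Cyc1 was not called.

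Complex IV genes rose in 11 of 14 tested cases in CGR8 at 5 h (median 0.89) and in 9 of 13 in NIH/3T3 (0.43), where 24.9% and 24% of all genes rose. Cox7a1 led in CGR8, from 6.36, 5.57 and 6.32 CPM at 0 h to 17.99, 12.1 and 12.1 CPM at 5 h (1.21 ± 0.188, adjusted p = 8.37e-05). At 48 h it stood at 2.64, 2.72 and 2.18 CPM, below every control library (-1.27 ± 0.206, adjusted p = 0.000271). In NIH/3T3 Cox7b, which encodes the common form of subunit 7b, led at 5 h, from 211, 212 and 209.6 CPM to 345, 361 and 338 CPM (0.72 ± 0.186, adjusted p = 0.00401). It was not called with length and GC trends removed (0.11, adjusted p = 0.548). Cox7b2 rose beside it in NIH/3T3, from 37.9, 37.4 and 35.1 CPM to 55.7, 63.6 and 58.6 CPM (0.69 ± 0.145, adjusted p = 0.000906). Cox6b2, in contrast, was not called in CGR8 at 5 h.

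Among complex IV members with a mean of 10 CPM or more, the leading rises at 2 h were less firm. Cox6b1 in NIH/3T3 went from 244, 140.4 and 254 CPM to 258, 322 and 359 CPM (0.56 ± 0.189, adjusted p = 0.0317), and missed the threshold without 0 h B, 2 h B or 2 h C. With length and GC trends removed it was not called (0.28, adjusted p = 0.147). Cox7c in CGR8 went from 153, 159.8 and 146 CPM to 189, 202 and 273 CPM (0.53 ± 0.143, adjusted p = 0.0178), and missed it without 0 h A, 0 h C or 2 h C, and also with the trends removed (0.08, adjusted p = 0.599). Below that limit, Cox7a1 rose by 0.58 in CGR8 at 2 h (adjusted p = 0.0401). At 48 h Cox7a2l fell in both lines. This gene, related to Cox7a2, is known for joining complexes III and IV into supercomplexes. It stood at 80.8, 70.7 and 79.9 CPM at 0 h and at 43.8, 42.4 and 42.2 CPM at 48 h in NIH/3T3 (-0.85 ± 0.144, adjusted p = 0.000137). In CGR8 it stood at 84.2, 112 and 88.4 CPM and then at 55.7, 59.7 and 51.0 CPM (-0.77 ± 0.171, adjusted p = 0.00303). The 48 h libraries lay below the controls in both lines. Cox7b was higher at 48 h in CGR8 (0.57 ± 0.204, adjusted p = 0.0475), a call lost whichever library of these groups was left out.

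Complex V genes rose in 13 of 17 tested cases in CGR8 at 5 h (median 0.64) and in 5 of 17 in NIH/3T3 (0.17). Of all genes 24.9% rose in CGR8 and 24% in NIH/3T3, so the NIH/3T3 count lay near the share of all genes. Within the complex the genes outside the head, c ring and peripheral stalk (Atp5j2, Atp5k, Atp5l, Atp5mpl and Atp5s) rose in CGR8 in 5 of 5 cases, with a median of 1.18. The peripheral stalk rose in 4 of 4 tested genes (0.75), the F1 head in 3 of 5 (0.38) and the c ring in 1 of 3 (0.34). These parts also differ in transcript length, with which the 5 h change moved. The first group runs from 321.5 to 1542 bp and the F1 head from 421 to 2572.5 bp. Differences between the parts were not tested and were not separated from length. The catalytic alpha subunit gene Atp5a1 was not called at 2, 5 or 48 h in either line. Atp5b rose in CGR8 at 5 h, from 2599, 3505 and 2659 CPM to 4263, 4059 and 3070 CPM (0.38 ± 0.143, adjusted p = 0.0354), although 5 h C lay within the range of the controls. Of the c ring genes, which encode the same mature protein, Atp5g3 rose in both lines at 5 h, by 0.74 in CGR8 and 0.40 in NIH/3T3, while Atp5g1 and Atp5g2 were called in neither.

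Atp5l, which encodes subunit g, led complex V in CGR8 at 5 h, from 4.66, 4.28 and 4.65 CPM to 14.9, 9.87 and 8.91 CPM (1.31 ± 0.209, adjusted p = 0.000102). With length and GC trends removed it was not called (0.36, adjusted p = 0.122). Atp5e, the epsilon subunit of the F1 stalk, led in NIH/3T3, from 96.3, 113 and 110 CPM at 0 h to 127, 184 and 194 CPM at 2 h and 174, 159.8 and 165.5 CPM at 5 h (0.66 ± 0.189 and 0.64 ± 0.189, adjusted p = 0.0140 and 0.00935). The 2 h call was lost without 0 h A, 2 h B or 2 h C. Atp5c1, the gamma subunit that turns inside the head, fell at 48 h in NIH/3T3, from 492, 499 and 525 CPM to 331, 338 and 333 CPM (-0.60 ± 0.115, adjusted p = 0.000416).

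The difference between the lines was tested directly, as the change in CGR8 minus the change in NIH/3T3. At 1 h 0 of 80 members differed (all genes, 0.0171% with a positive difference and 0.142% with a negative one), and at 2 h 0 (0.866% and 1.16%). At an unadjusted p under 0.05 there were 0 at 1 h and 2 at 2 h, and DESeq2 and voom called 0 at both times. At 5 h the difference was positive for 21 members and negative for 0, where it was positive for 8.18% of all genes and negative for 5.09%. The median difference of the members was 0.53. Complex I gave 10 of them, complex V 6, complex III 3, complex IV 2 and complex II 0.

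This count of 21 rested on the CGR8 5 h libraries, which were unequal. It was 1 without CGR8 5 h A, 5 without 5 h B and 46 without 5 h C, and 34 without CGR8 0 h B and 9 without CGR8 0 h A. It was 11 without CGR8 0 h C or without NIH/3T3 0 h C, 5 h B or 5 h C, and 14 to 17 without each of the others. With length and GC trends removed it was 10, all positive, with a median of 0.22, where 16.6% of all genes were called in either direction. The largest difference was that of Atp5o, which encodes the stalk protein that ties the head to the stator. In CGR8 it went from 32.98, 52.5 and 35.9 CPM to 103.8, 81.3 and 57.6 CPM, and in NIH/3T3 from 25.1, 22.8 and 26.3 CPM to 22.4, 23.1 and 21.3 CPM. The difference was 1.24 ± 0.304 on the log2 scale (adjusted p = 0.00652), and 0.83 without CGR8 5 h A (adjusted p = 0.0881). Next came Atp5l at 1.23 and Ndufb2 at 1.18, then Atp5k, another membrane subunit, at 1.11. Ndufb2 stood at 3.214 CPM or less in every untreated library (scaled over all 30 libraries). It shares exon sequence on the same strand with another annotated gene, so its counts are uncertain.

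At 48 h the difference was positive for 2 members and negative for 3, where it was positive for 9.78% of all genes and negative for 12.1%, and the median was 0.06. Atp5c1, which fell in NIH/3T3, stood at 392.1, 440.6 and 392.7 CPM in CGR8 at 48 h against 366, 457 and 381 CPM at 0 h, a difference of 0.60 ± 0.173 (adjusted p = 0.0115). The other was Atp5j (0.43, adjusted p = 0.0365). The difference was negative for Ndufs8 (-0.81 ± 0.249, adjusted p = 0.0180), Sdha (-0.74 ± 0.119, 3.91e-05) and Uqcrc1 (-0.53, 0.0455). Ndufs8 was not called without NIH/3T3 0 h A, CGR8 0 h B or CGR8 48 h C. The total of 5 was 3 without NIH/3T3 0 h A, 0 h B, 48 h B or 48 h C, or without CGR8 0 h B or any CGR8 48 h library, and 4 to 6 otherwise. Removing length and GC trends gave 13, with 2 positive and 11 negative, where 28.9% of all genes were called in either direction.

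The list of subunits encoded by mitochondrial DNA has 13 genes. Of these, mt-Nd3, mt-Nd4l, mt-Co2, mt-Co3, mt-Atp6 and mt-Atp8 stood at 1.08 CPM or less in every untreated library, and the other 7 at 66.2 CPM or more (scaled over all 30 libraries). Of 9 tested in each line, which include 2 of those near 0, 4 fell in NIH/3T3 at 5 h (median -0.63, all genes 27.1% lower) and 7 fell in CGR8 (-0.60, all genes 27.2% lower), and 0 rose in either. With length and GC trends removed the medians were -1.46 and -1.43. From 5 h to 48 h 7 rose in each line, where 34.1% of all genes rose in NIH/3T3 and 28.9% in CGR8. The cytochrome oxidase gene mt-Co1 stood at 1748, 1152 and 1424 CPM at 0 h in NIH/3T3, at 1003, 1101 and 1144 CPM at 5 h and at 2448, 3047 and 3039 CPM at 48 h. In CGR8 it stood at 2114, 1793 and 2186 CPM, then 996, 1046 and 1749 CPM, and then 3009, 2910 and 3730 CPM. All 5 h libraries lay below and all 48 h libraries above the controls of their line. The labels name a kit for mRNA, and how completely it captures mitochondrial transcripts was not tested.

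Of 55 tested assembly factors, proteins that help build the complexes and are not part of them, 30 rose and 2 fell in NIH/3T3 at 5 h (median 0.41), against 24% and 27.1% of all genes. In CGR8 43 rose and 3 fell (0.72), against 24.9% and 27.2%. At 48 h 12 were higher and 12 lower in NIH/3T3 (all genes, 26.7% and 25.6%), and 4 and 3 in CGR8 (12.2% and 15.6%). Cycs, the cytochrome c that carries electrons from complex III to IV, went in CGR8 from 95.4, 126 and 109 CPM to 170.3, 200.7 and 149 CPM at 5 h and rose by 0.66 on the log2 scale. In NIH/3T3 Cycs fell at 48 h from 165, 159 and 166 CPM to 90.7, 92.7 and 92.4 CPM, by 0.83.

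The genes for factors known to regulate the chain moved in both directions. Pprc1, a coactivator of the PGC-1 family, fell in NIH/3T3 from 176, 143 and 158 CPM to 98.0, 101 and 113 CPM at 5 h (-0.61), and in CGR8 from 382, 358 and 376 CPM to 175, 190.4 and 202 CPM (-0.98). Ppargc1b, of the same family, fell in CGR8 at 5 h by 1.15. Tfam, which packages and transcribes mitochondrial DNA, rose at 5 h by 0.48 in NIH/3T3 and 0.56 in CGR8. Nrf1 rose by 0.42 at 2 h in NIH/3T3, and by 0.29 at 48 h in CGR8. Gabpa was called in neither line at 2, 5 or 48 h, and Ppargc1a passed the filter on low counts in neither.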

How the data were processed

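The authors deposited raw counts of reads for 57186 gene identifiers in a single matrix, and 0 of its columns were left unmapped. The submitters' processing notes name STAR, DESeq2 and GRCm39. The counting tool, its use of strand and the annotation release are not given in the sources used here, so reads of overlapping genes (24 members, 4 on the same strand) may be shared. Symbols came from GENCODE M21 on GRCm38 with version suffixes ignored (51880 identifiers, 90.7%). Lengths are medians over protein-coding transcripts.

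Each line's 15 libraries were fitted with edgeR 4.0.16 in R 4.3.3: filterByExpr (minimum count 10, total 15), TMM scaling and the quasi-likelihood F test, with Benjamini-Hochberg adjustment over all genes tested and a threshold of 0.05. A 30-library fit gave the differences between the lines. The steps were also run on simulated counts in which few genes changed and no trend with length or GC was built in. That run does not bear on how such trends move the counts given here. Alternatives used DESeq2 1.42.0 and limma 3.58.1 (voom with sample weights), other scalings and filters, removal of length and GC trends, a block for the replicate letter, and leaving out single libraries.

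The members and lists were chosen with earlier results of these data known. Named members are, per line, time and complex, the largest called rise and fall among members with non-overlapping groups and a mean of 10 CPM or more, the largest line differences, the isoform families, the redox and catalytic subunits, members that passed no filter, the regulators and mitochondrially encoded subunits. Others, such as Ndufv2, Cox7a1 at 48 h and the lower-ranked line differences, were named after their values were seen.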

Additional observations from a re-analysis of the deposited data

Results flagged for a closer look

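The change at 5 h differed between the lines, by the test of the difference itself, for 21 of 80 members. All had a positive difference (CGR8 minus NIH/3T3), and Atp5o led with 1.24 on the log2 scale. Of all genes, 8.18% had a positive difference and 5.09% a negative one. With length and GC trends removed the 5 h count was 10, where 16.6% of all genes were called in either direction. At 48 h the difference, CGR8 minus NIH/3T3, was positive for 2 members and negative for 3. Of all genes, it was positive for 9.78% and negative for 12.1%. The leading values were 0.60 for Atp5c1 and -0.81 for Ndufs8. Leaving out single CGR8 libraries moved the 5 h count from 1 without 5 h A to 46 without 5 h C.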

How the results depend on the processing

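Counts of called members are given for the settings that moved them by more than 1.5 times, and what moved them was not tested. Percentages in brackets are the shares of all genes called in the same fit, in both directions, where these were counted. In NIH/3T3, voom with sample weights gave 12 (1 h), 66 (2 h), 57 (5 h) and 42 (48 h), in place of 0, 33, 36 and 21. It called 20.7%, 56.1%, 67.5% and 69.9% of all genes at these times. A fit of only the groups compared gave 56 at 5 h and 43 at 48 h. Removing length and GC trends gave 12 at 2 h (30%) and 39 at 48 h (57.2%), and with the replicate block added 13 (29%) and 40 (56.4%). In CGR8 at 2 h, in place of 14, the count was 22 with library size alone (20.4%), 31 with no filter (9.86%) and 25 with a mean of at least 5 CPM (30.1%). With voom the count was 47 (28.9%), and with only the groups compared 1. It was 9 with the replicate block (18.4%), 3 with length and GC trends removed (15.7%) and 2 with both (13.7%). It was 47 without both 0 h B and 2 h B, an alternative chosen after seeing the data. In CGR8 at 5 h, in place of 66, it was 43 with the trends removed (45.8%) and 42 with the block added (44.6%). At 48 h, in place of 10, it was 26 with the trends removed (36.2%), 25 with the block added (34.9%), 28 with voom (44.3%) and 16 with only the groups compared. For 48 h against 5 h, in place of 67, it was 38 with the trends removed (54.1%) and 33 with the block added (53.2%). For the line difference at 5 h, in place of 21, it was 11 with RLE scaling (11.7%), 10 with library size alone (12%) and 11 with a mean of at least 5 CPM (19.8%). It was 10 with the trends removed (16.6%), 10 with the block added (15.8%) and 70 with voom (36.3%). It was 35 without both CGR8 0 h B and 5 h C, also chosen after seeing the data. At 48 h, in place of 5, it was 13 with the trends removed (28.9%), 13 with the block added (28.2%), 23 with voom (43.4%) and 18 with only the groups compared.

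With each library left out in turn, the counts ranged in NIH/3T3 from 0 to 0 (1 h), 9 to 36 (2 h), 24 to 32 (5 h), 15 to 18 (48 h) and 42 to 45 for 48 h against 5 h. In CGR8 they ranged from 0 to 0, 0 to 35, 57 to 71, 5 to 8 and 62 to 71. For the line differences they ranged from 0 to 0 at 1 h and 2 h, 1 to 46 at 5 h and 3 to 6 at 48 h, and for the untreated lines from 42 to 44.

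Same-lettered libraries did not consistently deviate together (correlations with 0 h from -0.578 to 0.421), which does not settle whether the letters mark pairs. The replicate block alone moved no count but that of CGR8 at 2 h by over 1.5 times. Of 620 alternative values for 37 named results, 563 stayed on their side of the threshold, 57 lost the call and 0 reversed. These 37 were picked as the largest called changes in the same data, so the counts do not speak for the other members. Among all members with length and GC trends removed, 1 call turned in direction in NIH/3T3 at 5 h. For 48 h against 5 h, 9 turned in NIH/3T3 and 2 in CGR8. Without TMM factors, the CGR8 5 h median was -0.12 over all genes and 0.63 over the members. Depth limits the isoforms near 0 CPM, whose differences rest on few counts.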
